A study of Mus musculus with 5 samples.

Results

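Serpins are a family of proteins that share one fold, and most of them stop a target protease by letting it cut an exposed loop and then trapping it in a covalent complex. Hepatocytes secrete many of them into plasma, where they hold back leukocyte elastase, thrombin, factor Xa and plasmin. Other members carry hormones or assist collagen folding, and the branch called clade B acts mostly inside cells. All genes whose symbol starts with Serpin, a clade letter from a to i and a number were taken here, apart from Serping1, which left 47 of the 18820 genes measured by a probe set with a single gene symbol. Each gene stands for its probe set, and none of the 47 had more than 1. RefSeq places 14 of them on chromosome 12, 13 on chromosome 13 and 12 on chromosome 1.

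The livers came from adult C57Bl/6 mice that received 300 µg of antibody into the peritoneal cavity 3 times a week for 6 weeks. The 3 control livers had been given rat IgG, and the 2 treated livers M279, an antibody against CSF1R, the receptor that macrophages and monocytes need for survival and growth. The study asked how this treatment alters gene expression in the liver. Each liver sample was hybridised to 1 array, which gave a linear intensity for each of 35556 probe sets; values below are log2 of that intensity, and a difference is the treated mean minus the control mean, with the standard error (SE) from limma's fit to all probe sets. The labels do not say whether each sample is a separate animal. The p-values therefore rest on the spread among these 5 samples alone, which may be technical.

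Array medians lay between 32.5 and 33.9 on the linear scale, and Pearson's r over all probe sets was 0.983 to 0.992 for the 10 array pairs. The 9 measured hepatocyte markers, albumin among them, were all bright. Their summed linear intensity was 53700 to 56846 in the controls and 52195 and 55751 in treated liver. Of these markers 1 lay above and 3 below all controls, against 16.6% and 18.9% of genes with a mean log2 of 9 or more. Csf1r was at 8.49, 8.68 and 8.61 in the controls and at 7.93 and 8.12 in treated liver (adjusted p = 0.191 in limma). The number of arrays limits the precision, and with 3 controls and 2 treated arrays the smallest exact permutation p is 0.1.

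Of the 47 serpin genes, 20 had a mean of at least 5 on the log2 scale over the 5 arrays and are called bright here. The other 27 were dim and are kept apart. Serpinb8, at a mean of 5.20, was the bright gene nearest to this limit, and Serpina9, at 4.28, the nearest dim one. Intensities of different probe sets do not rank genes by transcript level, so each gene is compared only with itself.

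The promoters of the alpha-1-antitrypsin paralogs Serpina1b, Serpina1c and Serpina1d are shown because these near-identical neighbours on chromosome 12 had differences of like size, and that of Serpina3n because it was the protein-coding serpin with the smallest p among the bright genes. Each runs from 250 bases before to 50 bases after the annotated start in RefSeq, build GRCm38.p6, 5′ to 3′ on the gene's strand. Serpina1b lies at chr12:103738140-103738439, Serpina1c at chr12:103904901-103905200 and Serpina1d at chr12:103773584-103773883, all on the minus strand, and Serpina3n at chr12:104406458-104406757 on the plus strand. Capitals mark matches, on either strand, to GTTAAT, one arm of the site of the liver factor HNF1, and to TTGCNNAA, a form of the C/EBP site.
Serpina1b: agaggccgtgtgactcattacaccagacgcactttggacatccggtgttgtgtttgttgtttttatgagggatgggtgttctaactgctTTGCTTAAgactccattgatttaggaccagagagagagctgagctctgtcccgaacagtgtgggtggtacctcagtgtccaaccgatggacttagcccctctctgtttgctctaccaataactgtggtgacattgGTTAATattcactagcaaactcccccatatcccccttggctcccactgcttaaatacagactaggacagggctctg
Serpina1c: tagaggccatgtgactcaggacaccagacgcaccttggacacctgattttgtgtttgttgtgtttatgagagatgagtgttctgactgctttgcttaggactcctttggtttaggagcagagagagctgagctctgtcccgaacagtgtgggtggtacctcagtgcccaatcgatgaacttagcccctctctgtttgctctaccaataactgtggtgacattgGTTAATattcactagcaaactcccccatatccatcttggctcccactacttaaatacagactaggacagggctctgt
Serpina1d: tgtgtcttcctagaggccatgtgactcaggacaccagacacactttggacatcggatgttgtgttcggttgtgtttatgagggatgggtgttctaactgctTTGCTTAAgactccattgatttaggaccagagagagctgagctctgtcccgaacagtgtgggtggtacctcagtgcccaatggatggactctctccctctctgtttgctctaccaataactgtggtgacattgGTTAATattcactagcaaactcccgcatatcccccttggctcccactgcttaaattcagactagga
Serpina3n: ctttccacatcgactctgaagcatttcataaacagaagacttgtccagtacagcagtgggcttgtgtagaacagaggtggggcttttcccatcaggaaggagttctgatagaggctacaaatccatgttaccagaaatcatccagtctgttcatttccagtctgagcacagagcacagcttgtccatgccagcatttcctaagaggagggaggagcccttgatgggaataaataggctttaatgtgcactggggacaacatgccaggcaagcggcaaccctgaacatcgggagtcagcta

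Aligned end to end, the antitrypsin promoters were identical at 92.6% of aligned bases between Serpina1b and Serpina1c, at 94.1% between Serpina1b and Serpina1d and at 91.7% between Serpina1c and Serpina1d. Serpina3n matched Serpina1b at 56.4%, Serpina1c at 48.4% and Serpina1d at 51.4%, and its own paralog Serpina3b at 74.3%. All 3 antitrypsin promoters held GTTAAT, which 7.10% of 32851 RefSeq promoters of the same length hold, and Serpina1b and Serpina1d held TTGCNNAA, which 10.8% hold. The Serpina3n window held neither, and no match to TTCNNNGAA, a STAT site found in 8.30% of promoters. The motifs do not overlap each other in these windows. A match is a run of letters and was not tested as a binding site. Of the 47 genes 41 had a promoter in the table, among them 16 of the 20 bright ones.

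In limma's two-sided test 0 of 47 serpins had an adjusted p under 0.05, as did 0% of the 35556 probe sets. The adjusted p of the serpins ran from 0.187 to 0.989. At an unadjusted p under 0.05, 2 of the 20 bright serpins were lower, Serpina4-ps1 and Serpina3n, against 14.2% of the 10570 bright genes, and 0 were higher, against 2.19%. With both treated arrays below all controls there were 5 bright serpins, a quantity that 32.5% of bright genes share, and 1 was above all controls, against 8.74%. The median difference of the bright serpins was -0.00, beside -0.10 for all bright genes. At this setting no count is above the background share, but that does not hold under every alternative. Below all controls there were 7 of 20 with cyclic loess, against 20.3% of bright genes, and 5 of 20 with quantile normalization, against 19.2%. Above all controls there were 3 of 20 with arrays centred on their medians, against 12.2%, 4 of 20 without control replicate 1, against 11.1%, and 7 of 20 without treated replicate 1, against 27.5%. The count relative to the background thus turns on the setting, and no direction is given for the bright serpins as a group.

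**Figure D1:**
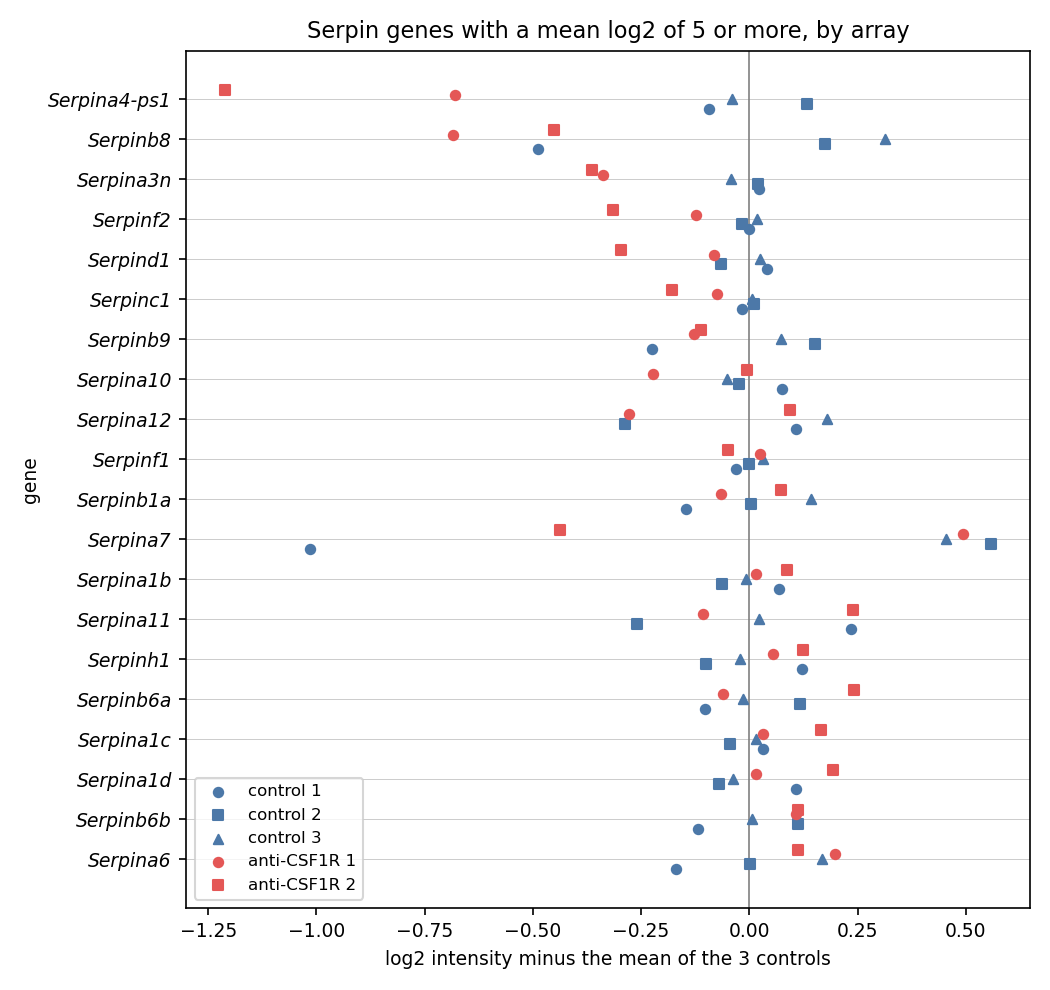
Log2 intensity of the 20 bright serpin genes on each array, as the distance from the mean of the 3 controls, with 1 point per array (blue, control; red, anti-CSF1R) and genes ordered by their difference. Both treated arrays lie below all controls for Serpina4-ps1, Serpina3n, Serpinf2, Serpind1 and Serpinc1, while Serpina7 has the widest spread within the groups.

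Serpina4-ps1 had the largest difference among the bright serpins. RefSeq lists it as a transcribed pseudogene, the mouse remnant of the gene for kallistatin, an inhibitor of tissue kallikrein in humans. Its log2 intensity was 11.02, 11.25 and 11.07 in the controls and 10.43 and 9.90 in treated liver. The groups did not overlap, and the gap between them was wider than the range within either. The difference was -0.95 ± 0.18, a ratio of 0.519 of treated to control (limma, adjusted p = 0.187). Against the control mean, treated replicate 1 was at -0.68 and treated replicate 2 at -1.21. Over 13 alternative settings and left-out arrays the difference ran from -1.21 to -0.68, and its adjusted p in limma from 0.0745 to 0.398. Alternatives that changed only the filter or the variance model could not alter the difference itself.

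The genes beside Serpina4-ps1 on chromosome 12 did not show a difference of that size. In the RefSeq order it stands between Serpina12, at -0.09 ± 0.19, and Serpina5, a dim gene at 0.19 ± 0.14. Serpina12 encodes vaspin, an adipokine, and Serpina5 the protein C inhibitor.

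Serpina3n encodes a secreted inhibitor related to human alpha-1-antichymotrypsin, and it is known to rise in the acute phase response. It was at 11.97, 11.97 and 11.91 in the controls and at 11.61 and 11.59 in treated liver. Both treated arrays lay below all controls, close together. The difference was -0.35 ± 0.10, a ratio of 0.784 (limma, adjusted p = 0.207). It ran from -0.44 to -0.31 over the same 13 alternatives. Serpina3a (0.19 ± 0.13) and Serpina3b (0.20 ± 0.11) were the other genes of this group with a probe set of a single symbol, and both were dim. The remaining Serpina3 genes of the chromosome 12 cluster were not analysed here, and how far probes of one paralog take up transcripts of another was not tested.

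The plasma inhibitors of clotting and fibrinolysis were measured by 4 bright genes and 1 dim gene, Serpina5. All 4 had a difference below 0, while 33.98% of bright genes and 49.4% of genes at a level of 9 or more, where these 4 lie, had one above 0. In 3 of the 4 both treated arrays lay below all controls, against 32.5% of bright genes and 18.9% at a level of 9 or more. Their median difference was -0.16, beside -0.10 for all bright genes and -0.00 at a level of 9 or more, and 0 of 4 passed the test. The median of the 4 was -0.10 for treated replicate 1 and -0.24 for treated replicate 2 alone, and stayed below 0 under each scaling, at -0.12 with arrays centred on their medians, -0.22 with quantile normalization and -0.25 with cyclic loess.

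Serpinf2 encodes alpha-2-antiplasmin, the main inhibitor of plasmin. It was at 12.12, 12.11 and 12.14 in the controls and at 11.999 and 11.807 in treated liver. The controls lay within a narrow band, and the treated arrays were further from each other than the controls were. The difference was -0.22 ± 0.11 (limma, adjusted p = 0.327), and -0.12 without treated replicate 2.

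Serpind1 encodes heparin cofactor II, an inhibitor of thrombin. Its values were 11.75, 11.64 and 11.73 in the controls and 11.63 and 11.41 in treated liver. Treated replicate 1 lay just under the lowest control, and treated replicate 2 clearly below. The difference was -0.19 ± 0.12 (limma, adjusted p = 0.392), or -0.30 without treated replicate 1 and -0.08 without treated replicate 2.

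Serpinc1 encodes antithrombin, which inhibits thrombin and factor Xa. It was at 12.26, 12.29 and 12.28 in the controls and at 12.20 and 12.10 in treated liver. The groups did not overlap. The difference was small, at -0.13 ± 0.10 (limma, adjusted p = 0.491), and -0.07 without treated replicate 2, -0.19 with quantile normalization and -0.24 with cyclic loess.

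Serpina10 encodes the protein Z-dependent inhibitor of factor Xa. It was at 9.95, 9.85 and 9.83 in the controls and at 9.66 and 9.87 in treated liver. Only treated replicate 1 lay below the controls. The difference was -0.11 ± 0.12 (limma, adjusted p = 0.588), with -0.01 from treated replicate 2 alone and -0.22 from treated replicate 1 alone.

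**Figure D2:**
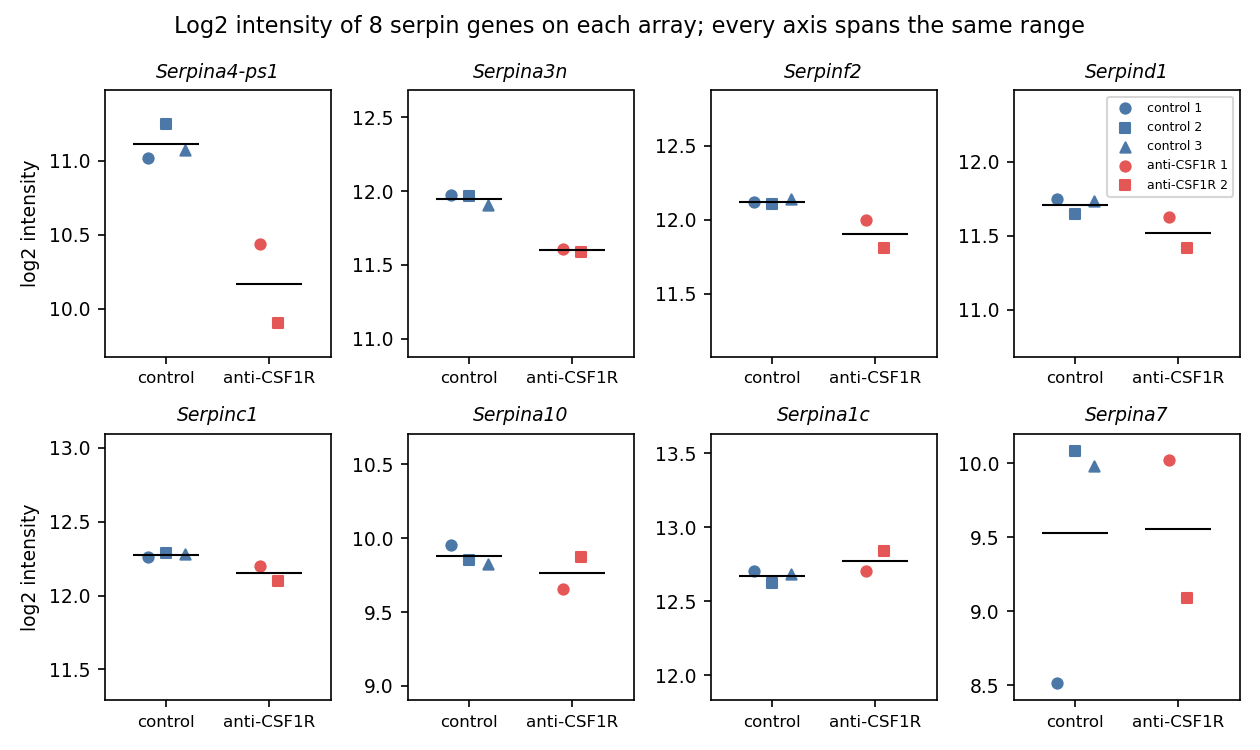
Log2 intensity of 8 serpin genes on each array, with a bar at the mean of each group (3 control and 2 anti-CSF1R arrays) and the same span on every vertical axis. Serpina4-ps1 lies at 11.02 to 11.25 in the controls and at 9.90 and 10.43 in treated liver, while the Serpina7 values of both groups are spread more widely than those of the other genes.

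Alpha-1-antitrypsin is the main plasma inhibitor of neutrophil elastase, and the mouse has several paralogs of its gene. Serpina1b was at 12.87, 12.74 and 12.79 in the controls and at 12.82 and 12.89 in treated liver. Serpina1c was at 12.70, 12.63 and 12.69 in the controls and at 12.70 and 12.84 in treated liver. Serpina1d was at 11.56, 11.39 and 11.42 in the controls and at 11.47 and 11.65 in treated liver. In the first and the third of these genes the groups overlapped, and in Serpina1c treated replicate 1 lay above the highest control by less than the second decimal of these values.

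The differences were 0.05 ± 0.11 for Serpina1b, 0.10 ± 0.11 for Serpina1c and 0.10 ± 0.12 for Serpina1d, all within 1 SE of 0. Their median was 0.10, beside -0.00 for genes at a level of 9 or more, with -0.04 under cyclic loess and 0.02 without treated replicate 2, and 0 of 3 passed. There were 2 further antitrypsin probe sets, which carry 5 and 4 gene symbols, with differences of 0.06 ± 0.11 and 0.05 ± 0.11. In each of these 5 probe sets control replicate 2 was the lowest of the controls, and treated replicate 2 lay above treated replicate 1. These paralogs are near-identical, so values of single genes are uncertain. Serpina1f, a paralog on the same stretch, was dim (-0.02 ± 0.12).

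The hormone carriers do not inhibit proteases. Serpina6, or corticosteroid-binding globulin, was at 11.48, 11.66 and 11.82 in the controls and at 11.85 and 11.77 in treated liver. Treated replicate 1 lay just above the controls and treated replicate 2 within their range. The difference was 0.15 ± 0.13 (limma, adjusted p = 0.519). It was 0.07 without control replicate 1 and 0.24 without control replicate 3, and 0.08 with quantile normalization and 0.07 with cyclic loess.

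Serpina7, or thyroxine-binding globulin, lies on chromosome X and had the widest spread of the bright serpins. It was at 8.51, 10.09 and 9.98 in the controls and at 10.02 and 9.09 in treated liver. Its array values are given because of that spread. Control replicate 1 and treated replicate 2 were low and the other 3 arrays high, whatever the group. The difference was 0.03 ± 0.53 (limma, adjusted p = 0.980), and it ran from -0.48 to 0.49 over the alternatives.

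The clade F and H members without a role in clotting had small differences. Serpinf1 encodes PEDF, a secreted factor that restrains vessel growth. It was at 11.89, 11.92 and 11.95 in the controls and at 11.95 and 11.87 in treated liver, with a difference of -0.01 ± 0.10. Serpinh1 encodes HSP47, the collagen chaperone of the endoplasmic reticulum, and differed by 0.09 ± 0.12. The remaining bright clade A genes were Serpina12, given above, and Serpina11 (0.07 ± 0.19), and the groups overlapped in both.

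Clade B inhibitors protect cells from their own or incoming granule proteases, and 5 of the 24 measured were bright. Serpinb8, which inhibits furin in humans, had the largest difference of these. It was at 4.94, 5.60 and 5.74 in the controls and at 4.75 and 4.98 in treated liver. Control replicate 1 lay between the treated arrays, so the groups overlapped. The difference was -0.57 ± 0.25 (limma, adjusted p = 0.294), and it ran from -0.81 without control replicate 1 to -0.41 without control replicate 3.

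Serpinb6b was at 6.53, 6.76 and 6.65 in the controls and at 6.75 and 6.76 in treated liver, with a difference of 0.11 ± 0.12. Serpinb9, an inhibitor of granzyme B, differed by -0.12 ± 0.14. Serpinb6a, an inhibitor of cathepsin G, differed by 0.09 ± 0.14, and Serpinb1a, an inhibitor of neutrophil elastase, by 0.00 ± 0.13. In all 5 bright clade B genes the groups overlapped, and their median difference was 0.00, beside -0.10 for all bright genes. In whole liver, fewer cells of a type and less RNA per cell cannot be told apart.

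These genes are also expressed by leukocytes, so marker lists are given beside them. The linear sum of 8 Kupffer cell markers was 2825 to 3309 in the controls and 2322 and 3033 in treated liver. Of these markers 1 lay above and 3 below all controls, against 8.74% and 32.5% of bright genes. Marco lay above (1.34 ± 0.17), and Adgre1 (-0.48 ± 0.18), Csf1r (-0.56 ± 0.12) and Cd163 (-0.80 ± 0.16) below. The median difference of the 8 was -0.25. All 9 measured neutrophil markers were dim, and their sum was 144 to 162 in the controls and 181 and 185 in treated liver. Of these markers 6 lay above all controls and 0 below, against 46.1% and 2.84% of dim genes. Their median difference was 0.28, beside 0.17 for all dim genes. The sum of 8 T and NK cell markers, 6 of them dim, was 153 to 194 in the controls and 159 and 201 in treated liver. For the other lists the control range and the treated sums were 132 to 150 against 108 and 173 for 3 B cell markers. They were 3682 to 3844 against 4044 and 4196 for 6 sinusoidal endothelial markers. For 6 stellate cell markers, all bright, they were 3407 to 3676 against 3700 and 3719. Of these 6 stellate genes 2 lay above all controls and 0 below, against 8.74% and 32.5% of bright genes. Lrat (0.36 ± 0.12) and Rgs5 (0.38 ± 0.10) lay above, while Dcn, the brightest, was at 0.02 ± 0.10 and overlapped. Of the 6 sinusoidal endothelial genes, all bright, 2 lay above and 1 below all controls, against 8.74% and 32.5% of bright genes. Clec4g (0.31 ± 0.10) and Fcgr2b (0.18 ± 0.12) lay above, and Kdr (-0.10 ± 0.11) below. The 4 genes other than Clec4g and Fcgr2b had differences from -0.33 to -0.05, and the median of the 6 was -0.08. The control range and the treated sums were 243 to 268 against 185 and 260 for 4 cholangiocyte markers, 1 of them dim. For 5 markers of exocrine pancreas, 4 of them dim, they were 90.0 to 90.8 against 107 and 119. Of these 5 genes 3 lay above all controls and 0 below, and 46.1% of dim genes lay above. The bright one, Cela1, was at 0.42 ± 0.12, and the median of the 5 was 0.30, beside 0.17 for all dim genes. The part of any of these cells in the serpin values was not tested.

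The 27 dim serpins had mean levels between 1.82 and 4.28, where the differences of all genes were shifted upward. Of these 27, 14 had both treated arrays above all controls, against 46.1% of the 8250 dim genes, and 0 lay below all controls, against 2.84%. An unadjusted limma p under 0.05 was reached by 6 that were higher, against 19.8%, and by 0 that were lower, against 0.982%. There were 6 above all controls with quantile normalization, against 23.5%, and 4 with cyclic loess, against 18.4%. The median difference of the dim serpins was 0.19, beside 0.17 for all dim genes.

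The 3 dim serpins with the smallest p belonged to clade B. Serpinb10, or bomapin, a serpin of haematopoietic cells, was at 3.38, 3.16 and 3.06 in the controls and at 3.75 and 3.88 in treated liver (0.62 ± 0.13, adjusted p = 0.192 in limma). Serpinb5, or maspin, a non-inhibitory serpin of epithelia, was at 2.50, 2.66 and 2.60 against 3.07 and 3.00 (0.45 ± 0.11, adjusted p = 0.192 in limma). Serpinb1b, a paralog of Serpinb1a, was at 3.01, 3.07 and 2.75 against 3.42 and 3.80 (0.66 ± 0.17, adjusted p = 0.193 in limma). In each the groups did not overlap, and each was above the 75th percentile of genes of its level. The other dim genes ran from -0.05 for Serpine3 to 0.30 for Serpinb3c.

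**Figure D3:**
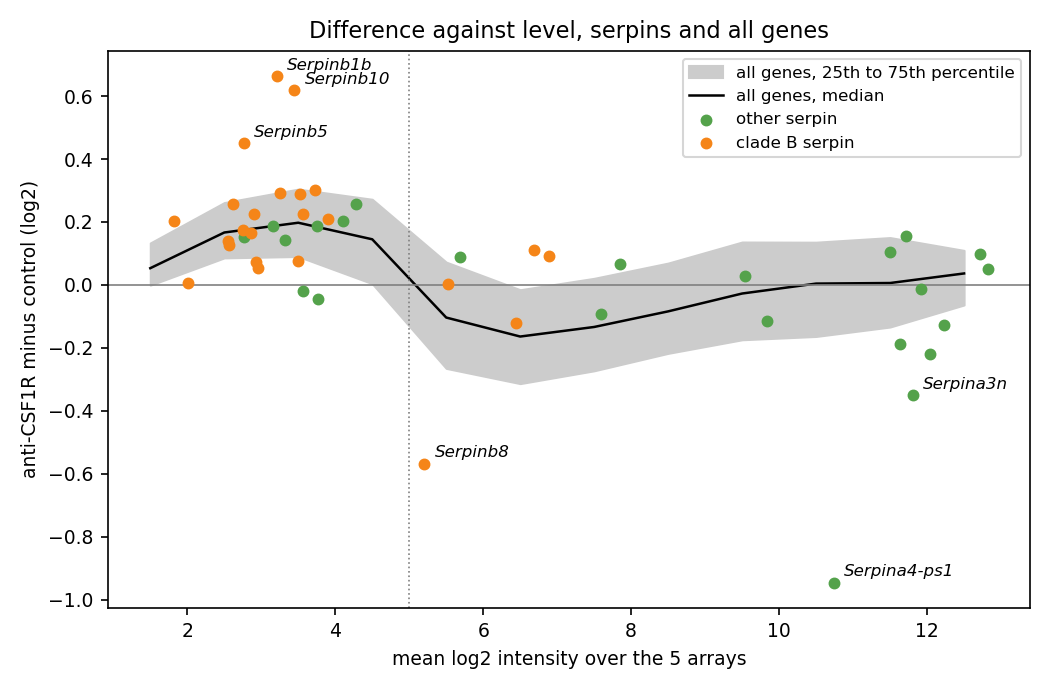
Difference between anti-CSF1R and control liver (log2) against the mean log2 intensity over the 5 arrays, for the 47 serpins (points) and for all genes in steps of 1 log2 unit (line, median; band, 25th to 75th percentile; steps with under 20 genes left out). The median line lies above 0 for levels under 5 and below 0 for levels between 5 and 9, and Serpina4-ps1 lies far below the band of its level.

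The shift with level matters for reading the bright serpins. The median difference of all genes was -0.16 at a level between 6 and 7 and 0.00 between 10 and 11. A limit of 9, chosen after the data were seen, left 12 serpins, 5 of them below all controls, against 18.9% of 2207 genes, and 1 above, against 16.6%. Their median difference was -0.06, beside -0.00 for all genes above that limit. The 5 were Serpina4-ps1, Serpina3n, Serpinf2, Serpind1 and Serpinc1. The share among these serpins was not tested against that of the other genes.

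The proteases that serpins restrain, with proteins that bind or clear serpins, form the other side of the pathway. Of 25 listed genes 23 were measured, 13 of them bright, and 0 of 23 were called by limma after adjustment. Among the bright ones 12 differences were below 0 and 1 above. Of all bright genes 33.98% had a difference above 0, and of genes at a level of 9 or more 49.4%. Of the 13 bright ones 4 had both treated arrays below all controls (32.5% of bright genes) and 0 above (8.74%). All but Thbd lie at a level of 9 or more, where 18.9% of genes were below and 16.6% above all controls. Their median difference was -0.11, beside -0.10 for all bright genes and -0.00 for genes at a level of 9 or more. Treated replicate 1 alone gave -0.03 and treated replicate 2 alone -0.16. Of the 10 dim ones, 2 were above all controls, against 46.1% of dim genes, and 2 below, against 2.84%. One of the latter was Plau, the urokinase gene, picked out after its values were seen. It was at 5.08, 5.06 and 4.90 in the controls and at 4.46 and 4.40 in treated liver (-0.59 ± 0.11, adjusted p = 0.187 in limma).

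Hgfac, the activator of hepatocyte growth factor, had the smallest p of the bright ones. It was at 10.65, 10.62 and 10.74 in the controls and at 10.45 and 10.37 in treated liver, with no overlap. The difference was -0.26 ± 0.11 (limma, adjusted p = 0.271). The 4 next were the clotting factors F9 (-0.25 ± 0.15) and F7 (-0.21 ± 0.13), plasminogen, Plg (-0.20 ± 0.13), and Habp2 (-0.20 ± 0.13), a protease that activates factor VII. Each of these 4 rested mainly on treated replicate 2, and without it the differences were -0.03 for F9, -0.07 for F7, -0.03 for Plg and -0.03 for Habp2.

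**Figure D4:**
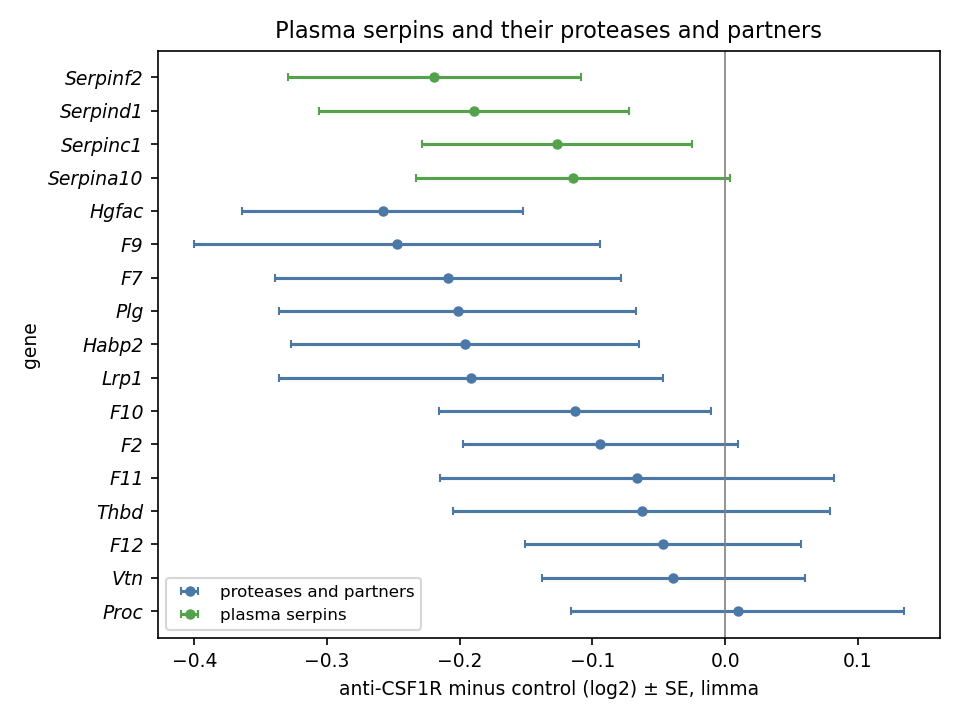
Difference between anti-CSF1R and control liver (log2, points) with its SE from limma (bars) for the 4 bright plasma serpins and for 13 bright proteases and partners. All but Proc lie below 0, from -0.26 for Hgfac to 0.01 for Proc.

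Pairs of inhibitor and target can be read side by side. Plasmin's precursor gene Plg was at -0.20 and its inhibitor Serpinf2 at -0.22, while the thrombin gene F2 was at -0.09 ± 0.10 and its inhibitors Serpinc1 and Serpind1 at -0.13 and -0.19. The factor X gene F10 was at -0.11 ± 0.10 and Serpina10 at -0.11. The protein C gene Proc was at 0.01 ± 0.13 and its inhibitor Serpina5, a dim gene, at 0.19 ± 0.14. All 6 listed leukocyte proteases were dim, and their differences did not share a sign. The median difference of all dim genes was 0.17. Neutrophil elastase, Elane, was at 0.33 ± 0.10, cathepsin G, Ctsg, at 0.23 ± 0.13 and the mast cell chymase, Cma1, at 0.31 ± 0.10, while proteinase 3, Prtn3, was at -0.36 ± 0.29. Granzyme B, Gzmb, was at -0.24 ± 0.13 and granzyme A, Gzma, at 0.03 ± 0.16. The differences within these pairs were not tested.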

How the data were processed

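The table the authors deposited holds 1 intensity per probe set and array on a linear scale. Per the submitters' processing notes, Affymetrix Expression Console 1.1 was used; how it summarised and normalized the probes is not stated in any source used here. RNA was prepared with Trizol and amplified with a NuGEN kit, per the labels' protocols.

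Intensities were taken to log2 without a filter. Both groups were fitted in limma 3.58.1 (R 4.3.3), leaving 3 residual degrees of freedom, and p-values were adjusted by Benjamini-Hochberg across the 35556 probe sets. The platform annotation gives 21218 probe sets 1 symbol and 1881 several, and 12457 are unlisted and unnamed here. All 47 serpin symbols matched RefSeq, assembly GRCm38.p6. The serpins and the protease and marker lists were chosen with earlier results of these data known. By rule, every bright serpin is named, with array values for the 10 with the smallest p and the 10 with the highest mean, as are the 3 dim serpins and the 5 bright proteases with the smallest p. The fit was tested on simulated data that held no shift with level of the kind seen here. That test therefore does not show how the fit behaves under such a shift. Alternatives changed the normalization, the filter, the variance model and the array weights, added a replicate block or left out an array. A planned comparison of paralog protein sequences was not made, and promoters are shown instead. Figures were drawn with matplotlib 3.10.9.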

Additional observations from a re-analysis of the deposited data

How the results depend on the processing

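No serpin gene passed an adjusted p of 0.05 under any alternative run in limma, and the count of called probe sets was 0 except for 14 when 1 probe set per gene was fitted. The number of bright serpins below all controls was 4 to 7. The number above all controls was 1, and became 2 with quantile normalization, 3 with arrays centred on their medians, 2 with a dim threshold of 4, and 2 to 7 when 1 array was left out, with 4 without control replicate 1 and 7 without treated replicate 1. The 14 dim serpins above all controls became 6 with quantile normalization and 4 with cyclic loess. The share of all dim genes above all controls went from 46.1% to 23.5% and 18.4% under the same settings. The cause was not tested. The median bright serpin difference was -0.0042, and leaving out 1 array gave from -0.0700 without treated replicate 2 to 0.0335 without treated replicate 1. It was 0.0336 with arrays centred on their medians, and with the limit of 9 added after the data were seen it was -0.0633. With the replicate block it was 0.0259, and no call changed. That equals the value without control replicate 3, as no treated array shares its number and the block takes it out of the difference. Same-numbered arrays share only a number: their deviations correlated at 0.0268 and 0.0325. The Serpina4-ps1, Serpina3n, Serpinf2, Serpind1, Serpinc1 and Serpina10 differences stayed below 0 under all 13 alternatives run, as did that of Serpinb8. Those of Serpina1d, Serpina6, Serpinb6b and Serpinh1 stayed above 0, while 9 of the 20 bright serpins changed sign under at least 1. Not all 13 could alter a difference, as changes to the filter or the variance model refit the same values. With 1 array left out, the difference changed sign or moved by over 1.5 times in 17 of the 20; the other 3 were Serpina4-ps1, Serpina3n and Serpinb8. Signal near background limits the dim genes, and all counts rest on 5 arrays.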
